A study of Mus musculus with 12 samples.

Results

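The change in translation efficiency (TE) after 21 h of cisplatin (Cis) was measured in KPC cells for 9344 genes. TE is the RPKM of ribosome footprints on a coding sequence over the RPKM of the same transcript in RNA-seq. A gene was included when its mean RPKM over the PBS and 21 h libraries was at least 1 in both assays, which 9344 of the 15803 listed transcripts met. The footprint minimum alone was met by 10410 transcripts and the RNA minimum by 9501. Of the 9344 genes, 364 were under 1 RPKM in footprints or RNA at 21 h and 204 were under it with PBS.

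The number of ribosomes on an mRNA depends on how much mRNA there is and on how often each copy is engaged, and TE separates the latter from the former. Stress lowers initiation on most mRNAs by phosphorylation of the initiation factor eIF2, while mRNAs with suitable upstream open reading frames, such as Atf4, are translated better under that condition. Other mRNAs carry their own switches, among them the 5′ terminal oligopyrimidine (TOP) tract of ribosomal protein mRNAs, which responds to mTOR, and the iron-responsive element of the ferritins.

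KPC cells are a mouse pancreatic ductal adenocarcinoma line. The groups compared were cells given PBS (labelled as untreated, with a duration that the labels do not state) and cells given 20 μM Cis for 21 h, each with 2 footprint and 2 RNA-seq libraries. All were lysed with cycloheximide, and footprints of 25-35 nt came from RNase I digestion. Cells at 6 h of Cis, with the same number of libraries, entered the fit and shared the PBS control. The labels do not say that replicates were separate cultures, so p-values measure the spread between these libraries.

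Footprint libraries of the compared groups held 3492790 to 5204127 reads. RNA-seq libraries held 2090245 to 2901692, but Lars2, Tmem38b and Mettl26 took 51.8 to 54.5% of them and left 1007194 to 1341584 for other transcripts. A gene had a median of 48 to 61 reads per RNA-seq library and of 113 to 171 per footprint library. The ductal keratins Krt8, Krt18 and Krt19 were abundant (1645 to 4749 RPKM in PBS footprints), as was the mesenchymal filament Vim (3610), while the epithelial genes Epcam, Muc1 and Cldn4 were at 1.26, 0.639 and 0.153. Footprint RPKM summed over all markers of a type was 9454 for ductal and 3697 for mesenchymal cells with PBS. It was 4.49 with PBS and 6.84 at 21 h for acinar cells (2 of 6 markers listed, Cela1 and Prss2), 1.89 and 4.16 for leukocytes (mainly Cd68), 9.19 and 5.66 for fibroblasts and at most 0.314 for endothelium and endocrine cells. No spike-in was added, so a TE change is relative to the other genes, and a fall of TE in all genes together could not be seen.

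The TE of 24 genes rose (0.257% of those tested) and that of 14 fell (0.15%) at 21 h, by limma with a Benjamini-Hochberg adjusted p under 0.05 (18 and 16 without scaling). Unadjusted, 1187 genes were under 0.05 (12.7%), 505 of them higher and 682 lower. For 79.7% of the genes the change was under 0.5 on the log2 scale, and the median over all genes was -0.04. Footprints and RNA changed far more often, with footprints higher in 1538 genes (16.5%) and lower in 1696 (18.2%), and RNA higher in 1532 (16.4%) and lower in 1458 (15.6%). Without scaling, RNA was higher in 1911 and lower in 1198. Of the 9344 genes, 4229 (45.3%) had a TE change above 0 and 5115 one below it. The shares over all genes in this paragraph belong beside the list counts below. Footprints and RNA were called in the same direction for 922 genes that rose and 1084 that fell, and in opposite directions for 17 genes. Of the 24 genes with a higher TE, 22 had higher footprints and 10 had lower RNA. Of the 14 with a lower TE, 9 had lower footprints and 6 had higher RNA.

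**Figure D1:**
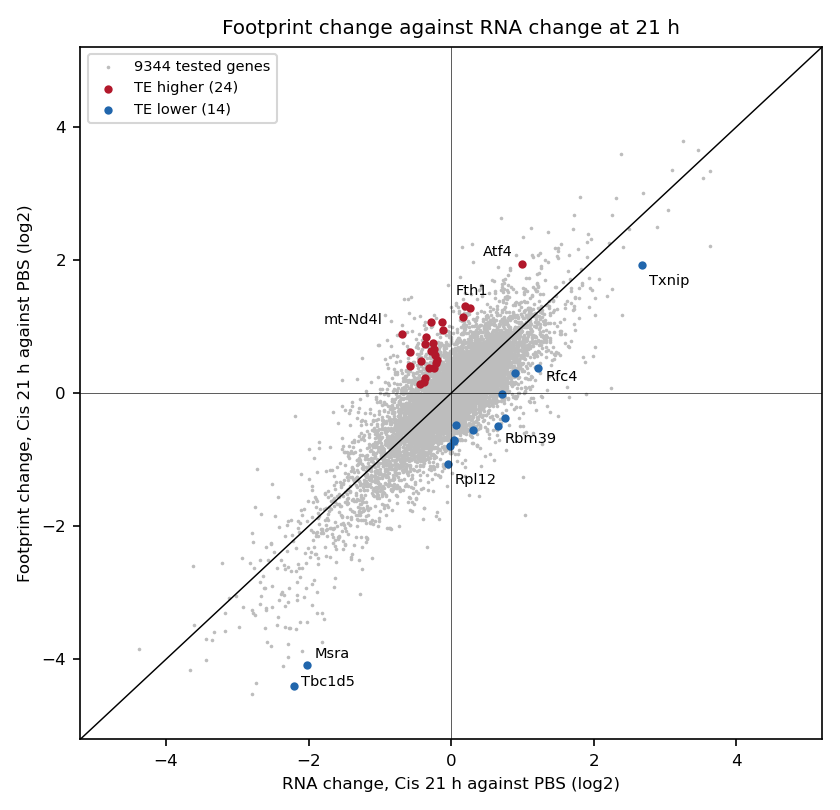
Footprint change (y axis) against RNA change (x axis) from PBS to Cis 21 h, both on the log2 scale, for 9344 genes. On the diagonal the TE did not change, and the 24 genes with a higher TE (red) lie above it and the 14 with a lower TE (blue) below.

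Taken as the 4 ratios of a footprint library over an RNA-seq library in each group, the values of 21 h and PBS did not overlap for 37 of the 38 genes. The exception was Msra, with 0 and 1 RNA reads at 21 h. The 38 genes were chosen by a test on the same libraries, so groups that were apart, here and below, add no support for the calls. Over all genes, 9.28% had every ratio of 21 h above those of PBS and 18.6% had every ratio below. The ratios are of RPKM as deposited, without the scaling used in the test. The calls depended on the libraries and on the model of the variance. With replicate 1 or 2 of the PBS footprint libraries left out, 17 and 9 of the 38 genes passed, and with replicate 1 or 2 of the 21 h footprint libraries left out, 19 and 3. Without RNA-seq replicate 1 or 2 of PBS, 5 and 3 passed, and without RNA-seq replicate 1 or 2 of 21 h, 23 and 2. With no trend of variance with expression 0 passed in limma (1098 unadjusted), and voom on the recovered reads called 74 higher and 78 lower, with 35 of the 38 among them. With the 8 compared libraries alone 3 of the 38 passed, and with no filter on low values 7. Rpl12 and mt-Nd4l passed without any one of the 8 libraries.

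**Figure D2:**
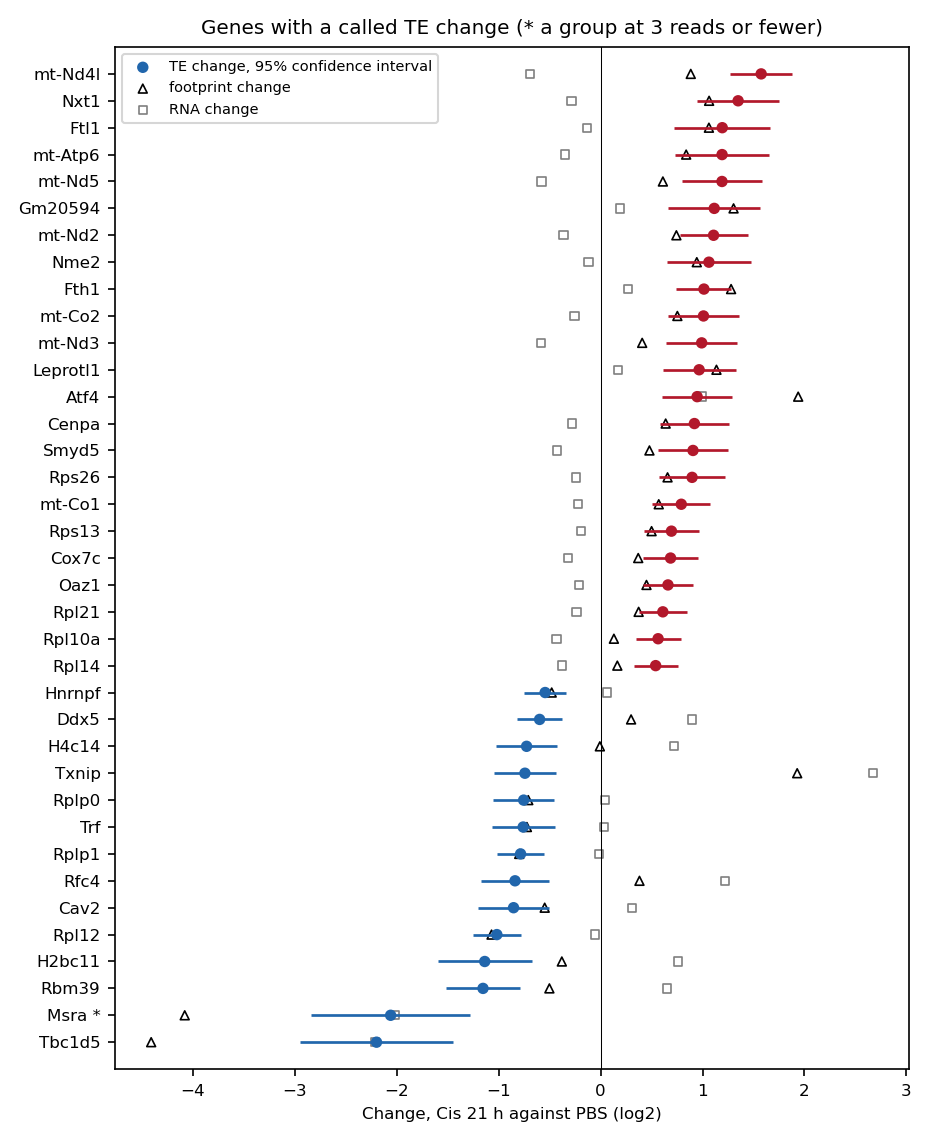
Change from PBS to Cis 21 h on the log2 scale for 37 of the 38 genes with a called TE change. Circles with bars are the TE change and its 95% confidence interval, triangles the footprint change and squares the RNA change. In most genes with a higher TE the triangle lies right of 0 and the square left of it or near it.

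The mitochondrial genome encodes core subunits of the respiratory chain, which are translated inside the organelle by its own ribosomes. Of its 10 listed mRNAs, 7 rose in TE and 0 fell, the TE of all 10 was above 0, and the median change was 1.0. The median lay between 0.80 and 1.19 over the alternatives, with PBS footprint replicate 2 or 1 left out. Footprints of 9 of them rose (median 0.62) and RNA of 4 fell (median -0.30). Their footprints were scaled together with those of all other genes, which come from cytosolic ribosomes. With no spike-in the rise is relative to those genes, and whether cytosolic footprints fell together was not tested.

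Mt-Nd4l, a complex I subunit, had the largest rise among the mitochondrial genes. Footprints of mt-Nd4l were at 477 and 390 RPKM with PBS and at 762 and 875 at 21 h, while its RNA was at 245 and 246 with PBS and at 150 and 172 at 21 h. The groups were apart in both assays, in opposite directions, and the ratio went from 1.58-1.95 to 4.42-5.82. The TE change of mt-Nd4l was 1.58 in log2 units (SE 0.14, limma adjusted p = 0.000871).

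Another complex I subunit, mt-Nd2, had 230 and 188 RPKM in PBS footprints and 361 and 354 at 21 h, with RNA at 218 and 210 and then 173 and 179. Its TE rose by 1.11 (SE 0.15). For mt-Nd5, footprints were at 357 and 261 RPKM with PBS and at 480 and 478 at 21 h, and RNA fell from 219 and 205 to 155 and 145. The TE of mt-Nd5 rose by 1.19 (SE 0.18).

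The ATP synthase subunit mt-Atp6 had 6557 and 4494 RPKM in PBS footprints and 8824 and 11249 at 21 h, and 1974 and 1986 and then 1620 and 1670 in RNA. Its TE rose by 1.19 (SE 0.21). The cytochrome oxidase subunit mt-Co2 had 3736 and 2724 RPKM in PBS footprints and 5781 and 5260 at 21 h, with RNA at 1958 and 1918 and then 1745 and 1695, a TE rise of 1.01 (SE 0.16). Footprint replicate 2 of PBS was the lowest library for each of these genes, and all 21 h footprint libraries lay above both PBS libraries. In mt-Nd3 the TE rose by 0.99 and in mt-Co1 by 0.79.

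The other three, mt-Nd1 (0.84, SE 0.22), mt-Nd6 (0.49, SE 0.17) and mt-Atp8 (0.27, SE 0.21), did not pass. Reads of the 10 mRNAs made up 1.89 and 1.46% of the footprint reads with PBS and 2.64 and 2.70% at 21 h. In RNA-seq they made up 1.93 and 1.85% and then 1.70 and 1.56% of the reads outside the 3 most abundant transcripts.

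**Figure D3:**
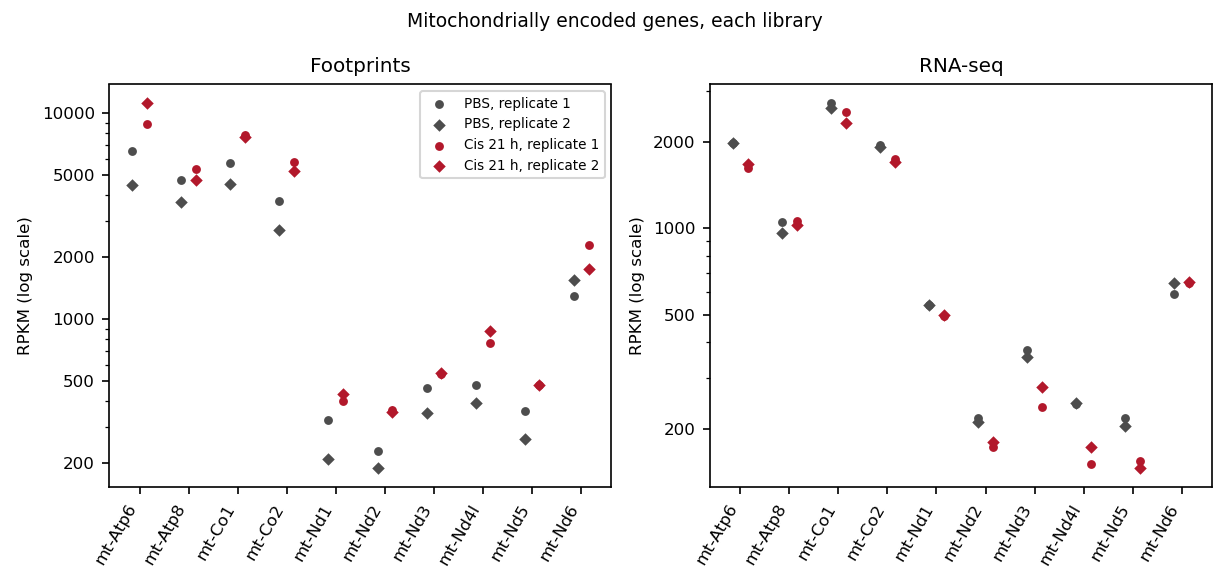
RPKM on a log scale (y axis) of the 10 mitochondrially encoded genes in each of 2 footprint libraries (left) and 2 RNA-seq libraries (right) of PBS and Cis 21 h. Red points lie above grey ones in footprints for most genes and at or below them in RNA-seq.

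The nuclear genes of oxidative phosphorylation were set beside them. Of 77 nuclear-encoded subunits of the respiratory chain and ATP synthase, 1 rose in TE and 0 fell, 38 were above 0, and the median was -0.0017. The 1 was Cox7c, a small cytochrome oxidase subunit, at 1037 and 1040 RPKM in PBS footprints and 1279 and 1480 at 21 h, with RNA at 202 and 201 and then 165 and 177 (TE change 0.69, SE 0.12). Ndufb1 (0.98, SE 0.24), Atp5e (0.82, SE 0.23) and Ndufs4 (-0.79, SE 0.20) did not pass. Of 78 mitochondrial ribosomal proteins, 0 passed in either direction and 31 were above 0, with a median of -0.06 and with Mrps2 at 0.83 and Mrps11 at -0.86.

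Cytosolic ribosomal proteins are encoded by TOP mRNAs. Of 42 large subunit proteins without the stalk, 4 rose in TE, among them Rpl10a, Rpl14 and Rpl21, and 1 fell (Rpl12), and 40 were above 0, against 45.3% of all genes. Of 31 small subunit proteins, 2 rose (Rps13 and Rps26), 0 fell, and 27 were above 0. The medians were 0.33 and 0.38, and 0.18 and 0.21 after quantile normalization. RNA was called lower for 16 large and 16 small subunit genes and higher for 0, with medians of -0.22 and -0.25. Footprints were higher for 9 and 8 and lower for 2 and 4, with medians of 0.14 and 0.07. Reads of ribosomal proteins can be shared with processed pseudogenes, so single values are uncertain.

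Rps26 had 812 and 770 RPKM in PBS footprints and 1166 and 1402 at 21 h, and 392 and 449 and then 385 and 367 in RNA, a TE rise of 0.90 (SE 0.15). Rps13 rose by 0.70 (SE 0.13), with footprints of 749 and 701 and then 998 and 1108 RPKM.

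Rpl12, which sits at the base of the stalk of the large subunit, went the other way. Footprints of Rpl12 were at 848 and 846 RPKM with PBS and at 396 and 431 at 21 h, while its RNA stayed between 777 and 822 in all 4 libraries. The ratio went from 1.07-1.09 to 0.482-0.555, and the TE change was -1.02 in log2 units (SE 0.11, limma adjusted p = 0.00307). The stalk proteins, which recruit elongation factors to the ribosome, split in direction. Rplp1 footprints fell from 1128 and 1246 to 713 and 686 RPKM with RNA between 1705 and 1889, a TE change of -0.78 (SE 0.11). Rplp0 footprints fell from 866 and 997 to 533 and 637 RPKM with RNA between 954 and 1094, a TE change of -0.75 (SE 0.14). For Rplp2, at 952 and 711 RPKM in PBS footprints and 989 and 1009 at 21 h, the TE change of 0.55 (SE 0.20) did not pass. Rpl12, Rplp1 and Rplp0 were thus the ribosomal protein genes with a lower TE, and their RNA was not called in either direction.

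The starts of these mRNAs were read from RefSeq on GRCm38.p6. A TOP start, here a C followed by 4 bases that are C or T at the annotated start on the transcribed strand, was found for 13 of 56 ribosomal protein genes with an entry (23.2%), for 217 of 7594 tested genes (2.86%) and for 823 of all 32851 starts (2.51%). The 13 genes had a median TE change of 0.49 and the other ribosomal protein genes one of 0.31. Outside the ribosomal proteins, 204 genes with a TOP start had a median of -0.02 and those without it -0.04. A run of at least 7 C or T within 10 bases before and 20 from the start, a measure chosen after the first was seen, was held by 53.6% of these ribosomal protein genes, 20.3% of tested genes and 17.9% of all starts. Annotated starts can lie away from the used ones, so a missing tract says only that the letters are not at this place. Rpl10a, which rose in TE and is not shown, had no TOP start at any of its annotated starts. The 30 bases around the start (the start is base 11) are shown for some genes with a called change and some with a TOP start. The longest run of C and T is in capitals.
Rpl14 (chr9:120571507-120571536, plus strand, TE 0.54): ggCCCTCTCTCTTCTCgctgagcgccgcca
Rps26 (chr10:128626487-128626516, minus strand, TE 0.90): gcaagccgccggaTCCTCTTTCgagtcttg
Rps13 (chr7:116334171-116334200, minus strand, TE 0.70): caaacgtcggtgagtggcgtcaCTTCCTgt
Rpl12 (chr2:32961702-32961731, plus strand, TE -1.02): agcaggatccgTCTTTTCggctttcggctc
Rplp0 (chr5:115559457-115559486, plus strand, TE -0.75): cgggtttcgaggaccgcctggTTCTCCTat
Rplp2 (chr7:141447641-141447670, plus strand, TE 0.55): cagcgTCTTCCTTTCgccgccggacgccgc
Fau (chr19:6057937-6057966, plus strand, TE 0.64): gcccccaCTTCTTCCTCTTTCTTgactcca
Rpl35 (chr2:39005112-39005141, minus strand, TE 0.60): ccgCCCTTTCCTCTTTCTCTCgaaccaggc
Rps6 (chr4:86857348-86857377, minus strand, TE 0.12): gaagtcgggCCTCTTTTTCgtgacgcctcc
The TE change of all 13 ribosomal protein genes with a TOP start was above 0, from 0.12 in Rps6 to 0.64 in Fau. Rpl12, which fell, had a run of 7 pyrimidines beginning 1 base after its annotated start and no TOP start by this definition.

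Of 17 other TOP mRNAs, 0 passed, 14 were above 0, and the median was 0.17, between 0.12 and 0.21 over the alternatives. The elongation factors Eef2 (0.57, SE 0.12), Eef1g (0.58) and Eef1a1 (0.55) were among them, each with an adjusted p between 0.067 and 0.086 in limma. RNA of 10 of the 17 was called lower. Translation initiation factors (48 genes, 0 called, median -0.05) included Eif3f at 0.53 and Eif2d at -0.75. The kinases and brakes of translation (19 genes, 0 called, median -0.03) included Rps6kb1, the S6 kinase, at 0.72 (SE 0.19). Aminoacyl-tRNA synthetases (32 genes, 0 called) had a median of -0.13, and -0.08 without RNA-seq replicate 2 of 21 h, with Qars at 0.66 and Dars at -0.56.

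**Figure D4:**
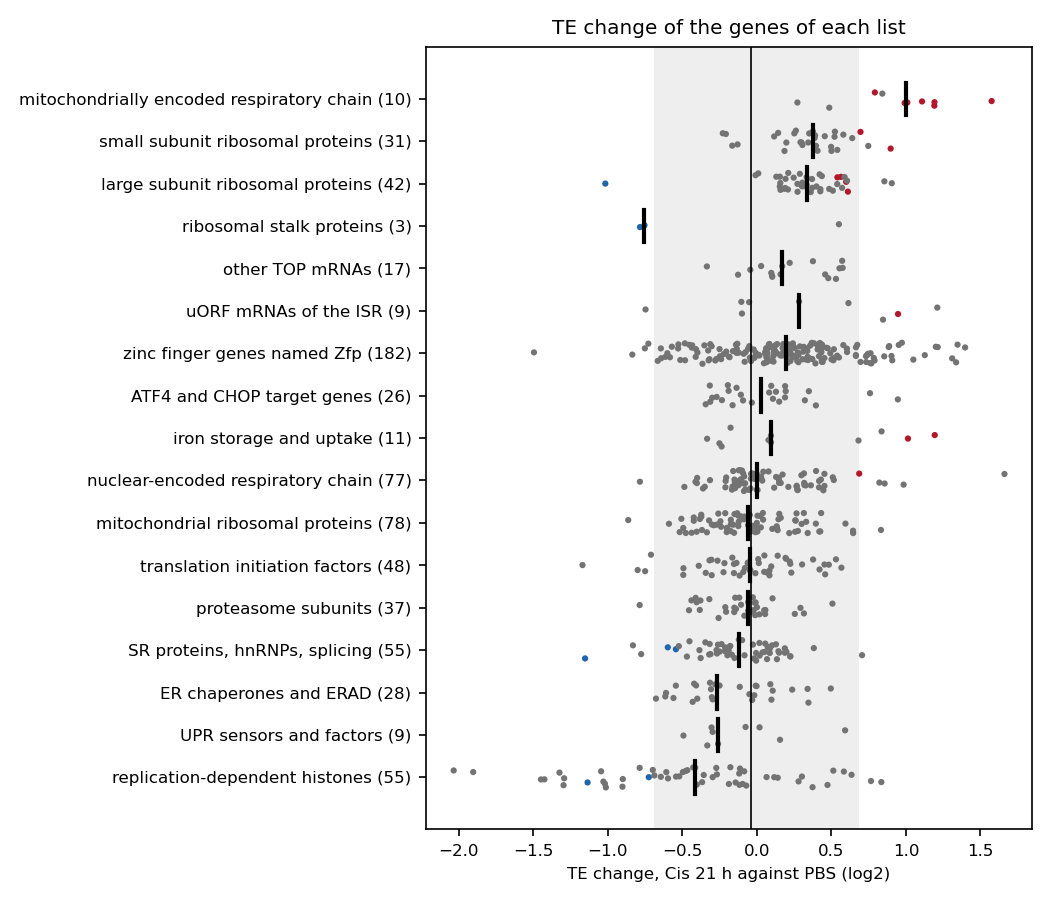
TE change from PBS to Cis 21 h on the log2 scale (x axis) for each gene of 17 lists (number of tested genes in brackets), red where called higher and blue where called lower. Thick ticks are list medians, the vertical line is the median of all genes, -0.04, and the grey band their 5th to 95th percentile, -0.69 to 0.68.

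Among mRNAs of the integrated stress response with upstream open reading frames, 1 of 9 rose in TE and 0 fell, and 5 were above 0. The 1 was Atf4, the transcription factor at the centre of this response. Atf4 footprints rose from 83.0 and 93.9 RPKM to 373 and 325, and its RNA from 67.1 and 71.1 to 146 and 146. Both assays rose without overlap, footprints by 1.94 and RNA by 0.99 on the log2 scale, and the ratio went from 1.17-1.40 to 2.22-2.56. The TE change of Atf4 was 0.95 (SE 0.16, adjusted p = 0.0362 from limma), and it was lost when footprint replicate 1 of PBS, footprint replicate 1 or 2 of 21 h, RNA-seq replicate 1 or 2 of PBS, or RNA-seq replicate 2 of 21 h was left out, at 0.84 to 1.05.

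Ddit3 (CHOP) had a TE change of 1.21 (SE 0.33, adjusted p = 0.152 from limma), with footprints of 11.8 and 11.1 RPKM with PBS and 153 and 140 at 21 h, and RNA of 10.5 and 18.6 and then 83.0 and 75.8. Its ratios did not overlap between the groups, but RNA-seq of PBS differed between the replicates. Atf5 was at 0.85 (SE 0.29) and Ppp1r15a, the phosphatase subunit that reverses eIF2 phosphorylation, at 0.61 (SE 0.25), neither passing. Ibtk (-0.75, SE 0.26) lay on the other side. The list median of 0.28 went down to 0.02 without footprint replicate 2 of PBS and up to 0.58 after quantile normalization. Of 26 targets of ATF4 and CHOP, 12 were higher and 2 lower in footprints and 12 were higher and 2 lower in RNA, with 0 called in TE and a TE median of 0.02. Gpt2 (0.95, SE 0.26) had the lowest p among these targets.

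Of 9 sensors and factors of the unfolded protein response, 0 passed in TE and 3 were above 0, with a median of -0.26, and of -0.13 without footprint replicate 1 of 21 h. Ern1, which encodes IRE1α, was at 10.4 and 8.34 RPKM in PBS footprints and at 6.48 and 7.03 at 21 h, and at 4.03 and 4.81 and then 2.53 and 3.17 in RNA. Its ratios overlapped, at 1.73-2.58 with PBS and 2.04-2.78 at 21 h, and its TE change was 0.15 on the log2 scale with a 95% confidence interval of -0.51 to 0.82. RNA of Ern1 was called lower (-0.63) and its footprints were not (-0.47). Xbp1 (0.59, SE 0.23) and Eif2ak3, which encodes PERK (-0.49, SE 0.37), did not pass either. Of 28 ER chaperones and ERAD genes, 0 passed and 21 were below 0, with a median of -0.27, and of -0.12 without RNA-seq replicate 1 of PBS. Hspa5 (BiP) was at -0.54 (SE 0.13), with footprints of 880 to 1006 RPKM in all 4 libraries and RNA rising from 81.0 and 91.6 to 127 and 158. Creld2 (-0.68), Dnajc10 (-0.61) and Pdia3 (-0.40) were the next by p.

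Ferritin stores iron, and its chains rose in TE together. Fth1, the heavy chain, had 774 and 640 RPKM in PBS footprints and 1887 and 1629 at 21 h, with RNA at 663 and 700 and then 870 and 868. The TE change of Fth1 was 1.01 in log2 units (SE 0.12, limma adjusted p = 0.00916), and it was lost without RNA-seq replicate 2 of PBS or of 21 h. For Ftl1, the light chain, footprints rose from 11.9 and 14.1 to 32.6 and 24.5 RPKM on 34 to 66 reads per library, with RNA between 156 and 180. The TE change of Ftl1 was 1.19 (SE 0.22, adjusted p = 0.0411 from limma), and the call was lost without each of the 8 libraries in turn, at 1.0 to 1.40 over all alternatives. Such a loss was not particular to Ftl1. The calls of Leprotl1, Nme2, Rfc4, Rpl14 and Txnip were also lost without each library in turn. Those of Cenpa, Cox7c, Gm20594, H2bc11, H4c14, Hnrnpf, mt-Nd3, Oaz1, Rplp0, Smyd5 and Trf, among others, were lost without most of them. Ftl1 and Fth1 have near-identical copies in the genome, and the ratio of Ftl1 was only 0.0661 to 0.209, so its values are uncertain. Of the other 9 genes of iron storage and uptake, 0 passed, and the median of all 11 was 0.09, or -0.04 without RNA-seq replicate 2 of 21 h. They included Hmox1 at 0.68 (SE 0.22) and Tfrc, the transferrin receptor, at -0.33 (SE 0.13). The transferrin gene Trf was not on this list, and its TE was called lower (-0.76).

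Oaz1, the antizyme that directs ornithine decarboxylase to the proteasome and is made by ribosomal frameshifting, rose in TE. Its footprints were at 241 and 240 RPKM and then 328 and 347, with RNA at 125 and 125 and then 109 and 121 (TE change 0.66, SE 0.11). Oaz2 (0.61, SE 0.20), Sat1 (0.69, SE 0.25) and Smox (0.35, SE 0.19) did not pass, and the 10 polyamine genes had a median of 0.12 with 7 above 0, and of 0.03 without RNA-seq replicate 2 of 21 h. Of 16 selenoproteins, decoded at UGA codons, 0 passed and 12 were above 0 (median 0.15), with Selenom at 0.76 and Gpx4 at 0.24.

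Nxt1, the small partner of the mRNA export receptor Nxf1, had the largest TE rise among the called genes of the nuclear genome. Its footprints were at 57.2 and 55.2 RPKM with PBS and at 114 and 128 at 21 h, and its RNA at 15.3 and 13.3 and then 13.1 and 11.6, on 27 to 43 RNA reads per library. The ratio went from 3.61-4.31 to 8.74-11.1, a change of 1.35 (SE 0.19, adjusted p = 0.0156 from limma). The call of Nxt1 was lost without footprint replicate 2 of PBS, footprint replicate 2 of 21 h, RNA-seq replicate 1 of PBS or RNA-seq replicate 2 of 21 h, at values from 1.23 to 1.47 over all alternatives. Of 22 nuclear export factors Nxt1 was the 1 that passed, and their median was 0.02, with Ddx19a at -0.54, Thoc7 at -0.69 and Alyref at -0.38.

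Nme2, a nucleoside diphosphate kinase, had 25.7 and 27.8 RPKM in PBS footprints and 52.4 and 54.0 at 21 h, with RNA between 25.2 and 28.5 in all 4 libraries (TE change 1.06, SE 0.19). The predicted gene Gm20594, with a coding sequence of 111 nt, had 384 and 313 RPKM in PBS footprints and 958 and 807 at 21 h, against 2688 and 2451 and then 3400 and 2831 in RNA (1.11, SE 0.21). Cenpa, the centromeric histone H3, rose by 0.92, the methyltransferase gene Smyd5 by 0.91 and Leprotl1 by 0.97. In Leprotl1 and Cenpa the footprint libraries of 21 h lay above those of PBS while RNA was not called.

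Several genes of RNA processing fell in TE. Of 55 SR proteins, hnRNPs and splicing regulators, 0 rose, 3 fell and 34 were below 0, with a median of -0.12, and of -0.06 without RNA-seq replicate 2 of PBS. Over all tested genes 5115 of 9344 were below 0, with a median of -0.04, so the count below 0 does not set this list apart. Rbm39, a splicing regulator, had 129 and 146 RPKM in PBS footprints and 107 and 91.5 at 21 h, while its RNA rose from 27.2 and 30.05 to 46.8 and 49.0. The assays moved in opposite directions and both were called, with a TE change of -1.15 (SE 0.17, adjusted p = 0.0217 from limma). The helicase Ddx5 rose in both assays, from 991 and 1032 to 1308 and 1244 RPKM in footprints and from 91.8 and 94.4 to 177 and 192 in RNA, and its TE fell by 0.60. In Hnrnpf footprints fell from 1780 and 1769 to 1333 and 1277 RPKM with RNA between 245 and 292, and its TE fell by 0.54. Srsf3 (-0.45, SE 0.10, adjusted p = 0.0945 from limma) did not pass.

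Replication-dependent histone mRNAs end in a stem-loop in place of a poly(A) tail, and their near-identical copies can share reads. Of 55 tested, 0 rose in TE, 2 fell and 43 were below 0, with a median of -0.41. RNA was higher for 20 and lower for 1 of them, while footprints were higher for 3 and lower for 3. The kind of RNA selection behind the RNA-seq libraries is not stated. H2bc11 had 2628 and 2135 RPKM in PBS footprints and 1793 and 1943 at 21 h, and RNA of 106 and 77.4 and then 163 and 162 (TE change -1.14, SE 0.21). H4c14 had footprints between 1697 and 1988 RPKM in all 4 libraries and RNA of 63.3 and 56.0 and then 104 and 104 (-0.73, SE 0.14). H2ac11 (-2.04, SE 0.43) and H3c3 (-1.29, SE 0.27) had an adjusted p of 0.0667 in limma. Of 7 replacement histones 0 passed and 5 were below 0 (median -0.09, and -0.26 without RNA-seq replicate 2 of 21 h), with H3f3b at -0.54 (SE 0.11). The centromeric histone gene Cenpa was not on this list and was called higher (0.92).

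Other genes with a lower TE had no list in common. Txnip, an inhibitor of thioredoxin, rose from 240 and 215 to 920 and 858 RPKM in footprints and from 37.9 and 36.0 to 261 and 244 in RNA, so its RNA rose more than its footprints (TE change -0.74, SE 0.14). Rfc4, a subunit of the clamp loader of DNA replication, rose from 67.7 and 65.7 to 87.0 and 91.6 RPKM in footprints and from 11.4 and 11.6 to 29.9 and 28.4 in RNA (-0.84, SE 0.15). Trf, which encodes transferrin, fell from 174 and 201 to 119 and 113 RPKM in footprints with RNA between 63.2 and 70.2 (-0.76, SE 0.14). Cav2, which encodes caveolin-2, fell from 234 and 271 to 181 and 171 RPKM in footprints, with RNA at 29.3 and 28.9 and then 33.8 and 43.2 (-0.85, SE 0.16). The groups did not overlap in footprints for any of these, but the genes were chosen by a call on the same libraries. The share of all genes without overlap in footprints was not counted.

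The largest falls by size rested on few reads. Tbc1d5, a regulator of retromer, had 19.4 and 19.1 RPKM in PBS footprints and 0.432 and 0.456 at 21 h, and RNA of 2.90 and 3.69 and then 0.360 and 0.301. At 21 h these were 4 and 4 footprint reads and 4 and 3 RNA reads, and the TE change was -2.20 (SE 0.34), between -2.33 and -1.99 over the alternatives. Msra, a methionine sulfoxide reductase, had 2 and 2 footprint reads and 0 and 1 RNA reads at 21 h, all at or under 3 reads, and no TE fold is given. Tbc1d5 and Msra were the called genes that met the minimum through PBS alone.

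The remaining lists held 0 genes with a called TE change. Over all tested genes 0.257% were called higher and 0.15% lower, so 0 calls in lists of these sizes do not set them apart. Of 26 immediate early genes, 23 rose in footprints and 23 in RNA, and 0 were called in TE (median -0.02, and 0.11 without 2 genes that had a group at or under 3 reads). Within that list Ier3 was at 0.54 (SE 0.15), Dusp6 at 0.68 (SE 0.21) and Klf6 at -0.55 (SE 0.15). Of 20 p53 targets, 8 rose in footprints and 8 in RNA with 0 called in TE (median 0.10, and -0.06 without RNA-seq replicate 2 of 21 h), and Cdkn1a (0.57), Phlda3 (1.14), Pmaip1 (-0.68) and Mdm2 (-0.80) lay on both sides of 0. NF-kB targets and cytokines (29 genes, 12 higher in footprints and 15 in RNA) had 0 called (median -0.07, and -0.26 by voom), with Cxcl1 at -0.93 (SE 0.22) and median changes of 0.47 in footprints and 0.72 in RNA. Heat shock proteins and the chaperonin (23 genes), interferon-stimulated genes (38), the cGAS-STING pathway (8), proteasome subunits (37), tubulins (11), GPI anchor synthesis (24) and vesicle coats, tethers, Rab and SNARE genes (214) had 0 called in TE, with medians between -0.13 and 0.21. Over the alternatives these medians lay between -0.18 and 0.28. Members of them included Rab7 at 0.54, Ap2s1 at 0.75 and Tubb5 at 0.46. Zinc finger genes named Zfp had 0 of 182 called and 126 above 0, with a median of 0.19, and of 0.07 with a mean RPKM of at least 5. Their footprints were higher for 65 and lower for 8, and RNA for 38 and 8. Over all tested genes footprints were higher in 16.5% and lower in 18.2%, and RNA in 16.4% and 15.6%, while 45.3% had a TE change above 0.

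The called genes were short and abundant. The median coding length was 537 nt for the 24 genes with a higher TE and 1030.5 nt for the 14 with a lower one, against 1353 nt over all genes. By quintile of coding length, the median TE change went from 0.06 (111 to 714 nt) to -0.16 (2457 to 23151 nt), and 19 of the 24 rises and 6 of the 14 falls lay in the shortest quintile. By 5′ untranslated length the median went from -0.01 to -0.07, and by 3′ untranslated length it stayed between -0.06 and -0.03. By mean RNA level it stayed between -0.05 and -0.02. By the TE ratio in PBS, which shares libraries with the change, it went from 0.02 to -0.08. Depth moved with the calls, since 19 of the rises and 11 of the falls lay in the quintile of genes with at least 557 RNA-seq reads over 4 libraries, where the median SE was 0.17, against 0.44 in the quintile with 79 or fewer.

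**Figure D5:**
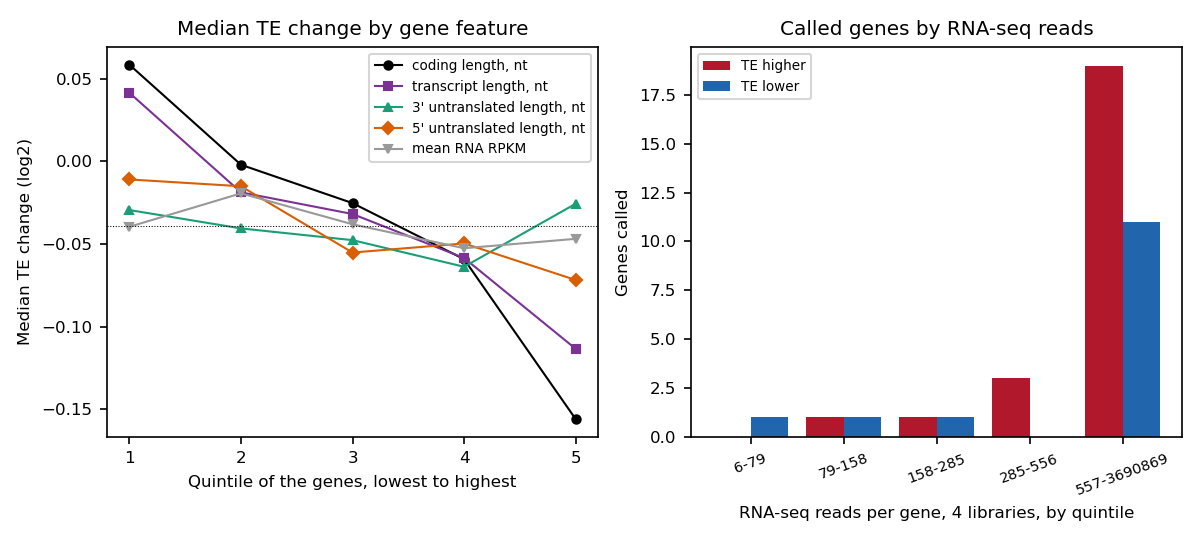
Left, median TE change on the log2 scale (y axis) by quintile of the tested genes for 5 features, with the median of all genes dotted. Right, number of genes called by quintile of RNA-seq reads summed over the 4 PBS and 21 h libraries. The median falls with coding length, from 0.06 to -0.16, and most calls lie in the quintile with the most reads.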

How the data were processed

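Ribosome profiling and RNA-seq were run on the same lysates of KPC cells, in 12 libraries, 2 per assay and treatment. The authors deposited RPKM per transcript, with footprints counted over the coding sequence and RNA-seq over the transcript. The processing notes of the submitters name cutadapt, STAR and GRCm39 with no version or role. RPKM times length gave whole reads for 100% of values within a tolerance of 0.001 reads, so depth could be recovered. Within an assay, libraries were scaled by median-of-ratios, and RPKM was taken as log2(RPKM + 0.5), which understates changes of low genes within an assay. The assay with the lower RPKM is compressed more, so the TE change of a low gene can be shifted up or down. With a pseudocount of 0.1 or 1 in place of 0.5, TE was called lower in 10 and 24 genes and higher in 25 and 27.

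TE was tested in limma 3.58.1 (R 4.3.3) by the assay-by-treatment interaction in a model of 6 groups, with a variance trend and Benjamini-Hochberg adjustment over 9344 genes. Footprint and RNA changes are contrasts of the same fit. A single value of 2 against 2 libraries cannot go below an exact two-sided permutation p of 0.333, so none was run. The fit was tested on simulated data.

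Named were all called genes, with library values for up to 10 rises and falls, up to 4 genes per list by p, the sensors of the unfolded protein response, and 5 genes with opposite changes. Ppp1r15a, the genes printed for their starts, and extra library values were chosen after values were seen. The values of 1 called gene are not reported here. Members and lists were chosen with earlier results of these data known. No pairing of libraries by replicate number was seen (correlations of replicate differences between -0.043 and 0.039). With few RNA-seq reads per gene, such correlations cannot exclude it. Libraries left out, scalings, filters, pseudocounts, variance models and voom were tried as alternatives.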

Additional observations from a re-analysis of the deposited data

Results flagged for a closer look

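For 22 of the 38 genes with a called TE change at 21 h, the change differed from that at 6 h of Cis, by the limma contrast of 21 h against 6 h libraries (adjusted p under 0.05), in which PBS cancels. Over all genes 95 (1.02%) passed in that contrast, and since the 38 genes were chosen by the same 21 h libraries, a larger share among them is favoured by the choice. The TE of 0 of the 38 genes passed at 6 h. Values are the 21 h change minus the 6 h change on the log2 scale.

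Among mitochondrial mRNAs the difference was 1.77 for mt-Nd4l (SE 0.14, from -0.20 at 6 h to 1.58 at 21 h), 1.37 for mt-Nd2, 1.28 for mt-Nd5, 1.25 for mt-Co2, 1.13 for mt-Co1 and 0.94 for mt-Nd3. In mt-Co1 the 6 h value was -0.34 and the 21 h value 0.79. Among ribosomal proteins it was 1.0 for Rps26, 0.69 for Rps13 and 0.61 for Rpl14.

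Atf4 was at -0.27 at 6 h and 0.95 at 21 h, a difference of 1.22 (SE 0.16, adjusted p = 0.00516 in limma). The ferritin chains differed by 0.94 (Fth1) and 1.12 (Ftl1), Oaz1 by 0.82, Nme2 by 1.03 and Cenpa by 0.82. Among genes with a lower TE at 21 h, Rbm39 differed by -1.23, Cav2 by -1.19 (from 0.34 to -0.85), H2bc11 by -1.08 and Txnip by -0.81. Tbc1d5 was at -1.88 on 3 or 4 reads per library at 21 h. The fitted value of Msra, -1.91, rests on 2 and 2 footprint reads and 0 and 1 RNA reads at 21 h and is no measure of the size of a change.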

How the results depend on the processing

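The number of TE calls (24 higher, 14 lower) moved by more than 1.5 times in many settings. There were 24 lower with a pseudocount of 1 RPKM, 4 higher and 4 lower with no filter, 29 lower with a mean RPKM of at least 5, and 15 higher after quantile normalization. In limma without the variance trend 0 passed in either direction (1098 at an unadjusted p under 0.05). With the 8 libraries of PBS and 21 h alone there were 2 and 1, by voom 74 and 78, at an adjusted p under 0.1 43 and 43, and with a change above 1 as well 10 and 5. With the replicate number as a block there were 2 and 3, and with a block by lysate 11 and 6. The labels do not state which footprint and RNA-seq libraries share a lysate, and which of these fits applies was not tested. Leaving out 1 library gave 1 to 27 higher and 1 to 15 lower. Footprint calls went to 1029 lower with a mean RPKM of at least 5, to 389 higher and 724 lower with a change above 1, and to 914-1595 and 1164-1752 without 1 library. RNA calls went to 913 lower, to 372 and 589, and to 1072-1456 and 1021-1430. The cause was not tested. None of the 38 called TE changes turned its sign under any alternative. The genes were chosen by a test on the same libraries that the alternatives reuse, so a kept sign adds no support for the calls. Which direction held more calls did turn in places. Footprints had more higher with a mean RPKM of at least 5 (1221 against 1029) and without scaling (1655 against 1564). RNA had more lower with no filter (1418 higher, 1472 lower), by quantile normalization (1424, 1448), without the variance trend (1363, 1370), by voom (1378, 1414), with a change above 1, and without either RNA-seq replicate of 21 h (1163 and 1219, 1102 and 1127). TE had more lower by voom, with the block by number and without RNA-seq replicate 1 of PBS. Without scaling the median TE change of all genes was -0.08 and with quantile normalization -0.01. Medians of the translation brake, nuclear respiratory, ATF4 target, immediate early, p53, interferon, cGAS-STING, export, iron, vesicle and GPI lists changed sign under at least 1 of 19 alternatives. RNA-seq depth limits TE, since 51.8 to 54.5% of those reads fell on 3 transcripts.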
